A study of Rattus norvegicus with 3 samples.

Results

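The homeobox, PAX, POU and SOX factor genes were examined in 3 single cell bodies (somata) of cultured rat hippocampal pyramidal neurons. Members were the probe sets with 1 gene symbol that joined a digit to any of the family stems of Hoxa to Hoxd, Dlx, Lhx, Pax, Pou, Sox and Nkx or of the sine oculis genes such as Six3. The rule found 95 probe sets of the 31099 on the array, which belonged to 74 genes of the 14218 measured. Of the 74 symbols, 70 name factor genes of 8 families. The other 4 were the POU coactivator genes Pou2af1 and Pou2af3, the antisense RNA Hoxa11-as and the entry Hoxa3l1, and they were given no region. All somata came from Sprague-Dawley rat embryos at embryonic day 19 with no treatment named, had grown for 14 days in primary culture, and formed a single group with 1 array each. They are called cells 1, 2 and 3 after their replicate numbers, and there was no second group to test them against.

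Factors of these families bind DNA and set the identity of cells along the axes of the embryo. Hox genes pattern the hindbrain, spinal cord and trunk, each in its own span of the body axis, and the forebrain forms in front of their domain. There, some LIM homeodomain factors (Lhx) such as Lhx2, Pax6 and some class III POU factors mark the pallium, from which pyramidal neurons arise. Dlx genes, Nkx2-1 and Sox6 mark the ventral forebrain, the source of GABAergic interneurons. SOX factors carry an HMG box and not a homeodomain: Sox1, Sox2 and Sox3 keep neural progenitors dividing, Sox4 and Sox11 act in young neurons, and Sox10 serves oligodendrocytes and the neural crest. Many factor genes are transcribed at low levels and persist in some mature neurons, and these roles are known mainly from the mouse.

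Each gene was placed by its percentile, its rank among all genes of an array, where a gene with several probe sets took their median. Probes differ in how well they bind, so a percentile says where a gene stood on the array and does not order transcripts by abundance. A gene was counted above background where its log2 value passed the 95th percentile of 138 genes not expected in a neuron, made of 97 genes of other organs and 41 chemosensory receptor genes. This limit lay at 9.63, 9.97 and 9.47 log2 in cells 1, 2 and 3. Such silent genes reached high places too: their highest, the milk casein gene Csn1s1, had a mean percentile of 99.6. Cell 1 stood apart in 1 pair of control probe sets. The probe set at the 3′ end of Gapdh exceeded that at the 5′ end by 0.20 log2 there, against 3.06 in cell 2 and 2.93 in cell 3. Whether this difference between cells came from RNA quality was not tested, nor was its part in the members' values. Of the defining pyramidal markers, Neurod2 (99.9, 99.9 and 99.9) and Nrgn (94.8, 99.4 and 98.8) stood high in all cells, whereas Slc17a7 (55.3, 51.2 and 51.2) and Tbr1 (2.12, 14.6 and 23.9) did not. Above background were 2, 2 and 5 of 12 pyramidal markers in cells 1, 2 and 3 (16.7%, 16.7% and 41.7%). Of 10 interneuron markers 1 passed in each cell (10%). Over all genes 7.57%, 6.03% and 10.5% passed.

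As a whole the factor genes stood in the middle of the array. Their median percentile was 50.7, 47.8 and 42.6 in cells 1, 2 and 3, or 47.0 ± 4.10 (SD, n = 3 cells), against 50.03 for all genes and 29.9, 37.0 and 36.4 for the silent genes. Of the 74 members, 9 were above background in each cell, where 7.57%, 6.03% and 10.5% of all genes passed in cells 1, 2 and 3. That was 12.2% of the members, above the share of all genes in each cell and closest to it in cell 3. In the top 5% of an array were 5, 7 and 5 members, against 5.01%, 5.01% and 5.00% of all genes. Above background in every cell were 5 members (6.76%, against 2.15% of all genes), and 58 members passed it in no cell (78.4%, against 83.5% of all genes). These calls used the median of a gene's probe sets, and for 3 of the 58, Sox2, Sox4 and Sox17, a single probe set did pass in some cell. In the top 5% of every cell were 2 members, against 1.39% of all genes. Above the 50th percentile in all 3 cells were 20 members (27.0%, against 26.4% of all genes), and below it in all 3 were 19 (25.7%, against 25.0%).

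The comparison of regions set 14 forebrain factors against 30 factors of other regions of the nervous system and 15 of organs outside it. Forebrain factors had median percentiles of 52.0, 55.2 and 48.0 in cells 1, 2 and 3, or 51.7 ± 3.6002, against 54.2, 35.9 and 44.7, or 44.95 ± 9.18, for factors of the other regions (SD, n = 3 cells). The difference, forebrain minus other regions, was -2.26 percentile points in cell 1, 19.3 in cell 2 and 3.28 in cell 3, or 6.76 ± 11.2. It was thus smaller than its spread between the cells, it was below 0 in cell 1, and without cell 2 it was 0.512. On the quantile-normalised log2 scale the difference was -0.08, 0.72 and 0.12, or 0.25 ± 0.42. Against factors of organs outside the nervous system, whose medians were 46.4, 67.6 and 60.3, forebrain factors differed by 5.57, -12.5 and -12.3 points, or -6.39 ± 10.4. This too was within the spread of the cells: it was -12.4 without cell 1, -3.35 without cell 2 and -3.45 without cell 3.

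**Figure D1:**
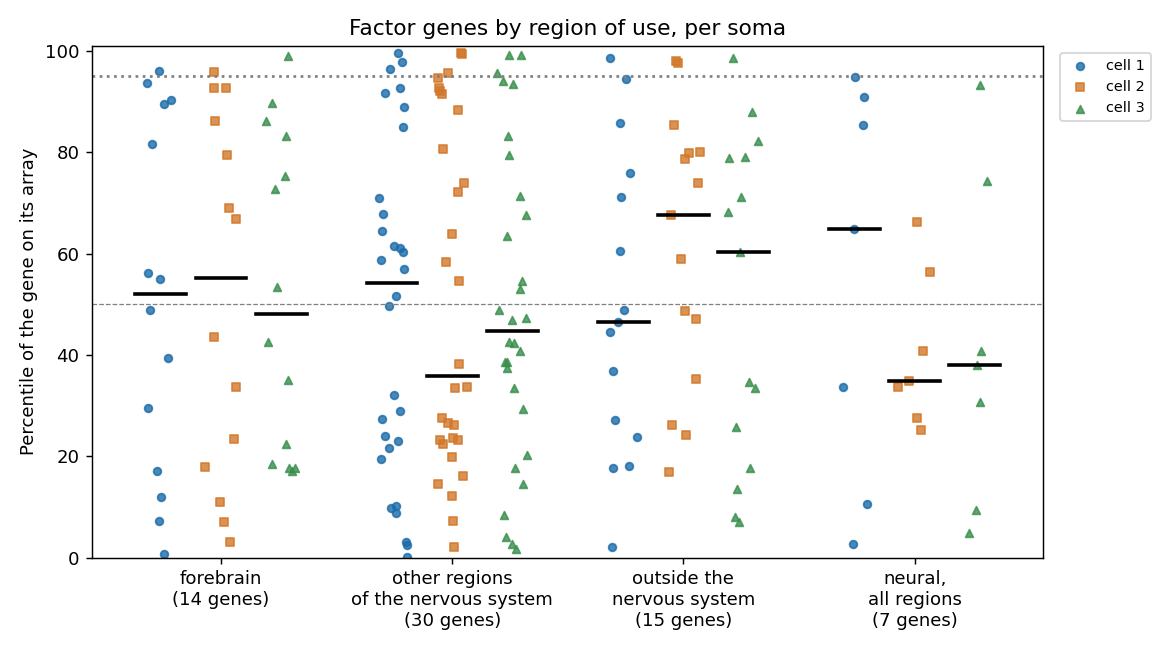
Percentile of each factor gene on its array (vertical axis, 0 to 100) for the factors of the forebrain, of other regions of the nervous system, of organs outside it and of all neural regions, with 1 point per gene, a colour and symbol per cell and a black bar at the median. The dotted line marks the 95th percentile and the dashed line the 50th, and the forebrain factors, which reach 96.1, 95.8 and 99.1 in cells 1, 2 and 3, overlap the factors of other regions in every cell.

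Of the 14 forebrain factors 2, 1 and 2 passed background in cells 1, 2 and 3 (14.3%, 7.14% and 14.3%, against 7.57%, 6.03% and 10.5% of all genes). None of them passed it in every cell, and 5 passed it in at least 1 (35.7%, against 16.5% of all genes). Of the 30 factors of other regions 4, 4 and 5 passed (13.3%, 13.3% and 16.7%), with 4 above it in every cell and 5 in at least 1 (16.7%). Of the 15 factors of other organs 2, 2 and 1 passed (13.3%, 13.3% and 6.67%), and 1, Dlx3, was above it in every cell. The members above background in every cell were therefore 4 of other nervous system regions (13.3%) and 1 from outside it (6.67%). Over all genes 2.15% passed in every cell, and over the forebrain factors 0%. Of the 4, Pax8 passed as the median of 2 probe sets, and the dimmer of them passed in no cell. At this number of arrays no test of the split between regions was made.

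Among the pallial factors, Pax6, a paired-box factor of cortical progenitors, had the highest mean percentile (82.98, next to 82.5 for Lhx9), with 9.85, 7.99 and 9.08 log2 in cells 1, 2 and 3 (percentiles 93.6, 69.1 and 86.3). It passed background in cell 1 alone. Lhx9, a LIM homeodomain factor of pallium and thalamus, read 8.61, 7.88 and 11.72 log2 and reached percentile 99.1 in cell 3. Lhx2, which sets cortical and hippocampal identity in the mouse, read 7.43, 5.93 and 9.50 log2 (percentiles 55.05, 17.97 and 89.8), again with its highest value in cell 3, where it just passed background.

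The class III POU factors, which act in cortical neurons, did not stand together. Pou3f3 (Brn1) read 9.36, 10.32 and 7.31 log2 in cells 1, 2 and 3 (percentiles 90.4, 95.8 and 53.4), above background in cell 2. Pou3f2 (Brn2) read 7.24, 6.63 and 8.30 log2 (percentiles 48.9, 33.7 and 75.3). Pou3f1 (Oct6) was the lowest forebrain factor, at 4.40, 4.80 and 6.07 log2 (percentiles 0.777, 3.15 and 22.5). Pou3f3 was thus lowest in cell 3, the cell in which Pou3f2 and Pou3f1 were highest. The last pallial member, Lhx5, a factor of Cajal-Retzius cells, had a mean percentile of 25.2. The pallial list as a whole had medians of 55.0, 33.7 and 75.3.

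Factors of the ventral forebrain differed between cells. Nkx2-1, which specifies interneurons of the medial ganglionic eminence, read 10.36, 9.73 and 5.83 log2 in cells 1, 2 and 3, at percentiles of 96.1, 92.6 and 17.6. Dlx1, which drives the interneuron programme, followed with 9.23, 9.76 and 6.91 log2 (89.4, 92.8 and 42.6). Nkx2-1 passed background in cell 1 and Dlx1 in none. Both had their lowest value in cell 3, Dlx1 near the middle of that array, while Dlx5 (7.13, 11.02 and 17.04) and Sox6 (mean percentile 12.5) were low in all. Interneuron markers too had their lowest median in cell 3, with 49.5, 63.0 and 35.7 over 10 genes. This was not particular to them. Astrocyte, oligodendrocyte, microglial and vascular markers also had their lowest medians there (23.9, 55.1, 24.1 and 41.7). Pyramidal markers had their highest there (87.2). Within the interneuron list, Calb2 (99.1) and Sst (46.3) were highest in cell 3. Gad1 lay at 58.5, 80.3 and 5.26, Gad2 at 14.1, 0.644 and 7.48 and Slc32a1 at 27.8, 55.9 and 14.0. Of the list, 1 of the 10 passed background in each cell (10%, against 7.57%, 6.03% and 10.5% of all genes). It was Calb2 in cells 1 and 3 and Vip in cell 2. The part of the interneuron markers in the values of Nkx2-1 and Dlx1 was not tested. Pallial minus ventral medians were 4.32, -18.1 and 57.2 points in cells 1, 2 and 3, a difference whose sign changed between cells. Of the eye and hypothalamus factors, Six3 lay at 56.2, 79.6 and 83.3 and Six6 at 29.4, 86.1 and 17.6, and Pou3f4 at 39.5, 43.5 and 72.7.

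**Figure D2:**
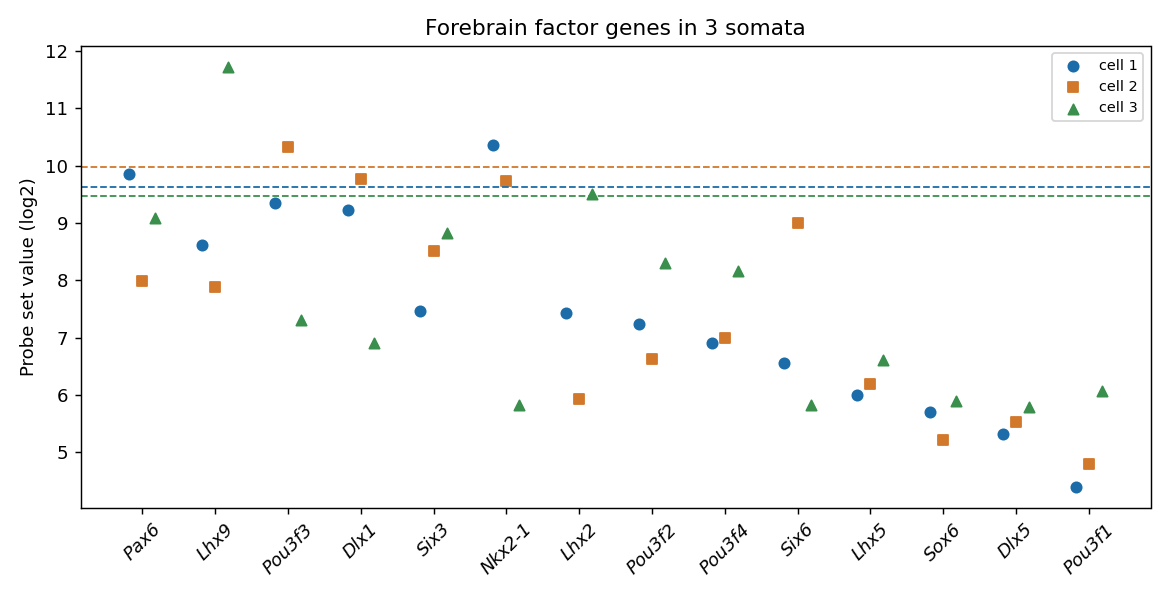
Log2 value (vertical axis) of the 14 forebrain factor genes, ordered by mean percentile, with a colour and symbol per cell and a dashed line of the same colour at the background of that cell. Nkx2-1 and Dlx1 have their lowest values in cell 3 and Lhx9 and Lhx2 lie highest there, and 5 of the 14 genes pass a background line.

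The 7 members that stood highest in the mean were not forebrain factors. Hoxd11, a limb and trunk patterning gene, read 11.91, 11.93 and 11.75 log2 in cells 1, 2 and 3 (mean percentile 99.4), the highest of all members. Pax2, a factor of the midbrain-hindbrain boundary and the kidney, read 10.90, 11.71 and 11.77 log2 (98.7), and Dlx3, of epidermis and placenta, 9.99, 10.99 and 11.50 log2 (97.0). These 3 passed background in every cell, as did Hoxb7 (96.4, 94.7 and 95.8 as percentiles) and Pax8, a factor of the hindbrain, thyroid and kidney (92.6, 95.7 and 93.4). Sox15, known from muscle and placenta, lay at 98.7, 97.6 and 87.9 and passed in cells 1 and 2, and Hoxd4 at 89.0, 92.6 and 94.0 and passed in cell 3. Pax6 closed the 8 highest members. At the other end were Hoxa9 (0.095, 7.27 and 1.66), Hoxd8 (8.71, 12.2 and 4.10), Pou3f1 and Pou2af3 (6.05, 20.9 and 1.28).

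Hox genes, which have their textbook roles behind the forebrain, stood in the middle. The median percentile of the 22 Hox factors was 50.7, 46.4 and 48.1, or 48.4 ± 2.13. Of them 2, 2 and 3 passed background (9.09%, 9.09% and 13.6%, against 7.57%, 6.03% and 10.5% of all genes). Hoxa11-as and Hoxa3l1 are not counted here. By cluster they had medians averaging 33.6 ± 11.9 for HoxA (5 genes), 70.7 ± 9.74 for HoxB (6 genes), 33.9 ± 10.5 for HoxC (4 genes) and 43.1 ± 21.1 for HoxD (7 genes), so HoxB read highest in its mean. In cell 1 HoxD (64.5) lay above HoxB (59.5), and in cells 2 and 3 HoxB (77.3 and 75.4) lay above the other clusters. HoxB ran down to Hoxb13 (51.6, 38.1 and 33.4) from Hoxb7, HoxA to Hoxa9 from Hoxa7 (24.0, 54.7 and 48.9), and HoxC to Hoxc9 (2.55, 19.9 and 38.5) from Hoxc5 (23.0, 63.9 and 63.4). Along the clusters, paralog groups 1 to 4 averaged 57.6 ± 4.23 (7 genes), groups 5 to 8 averaged 44.4 ± 17.7 (7 genes) and groups 9 to 13 averaged 36.8 ± 4.06 (8 genes). The posterior groups thus read lowest in the mean, although Hoxd11, the highest member, belongs to them, and the order did not hold in every cell: groups 5 to 8 lay below groups 9 to 13 in cell 1 (24.0 and 38.5).

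**Figure D3:**
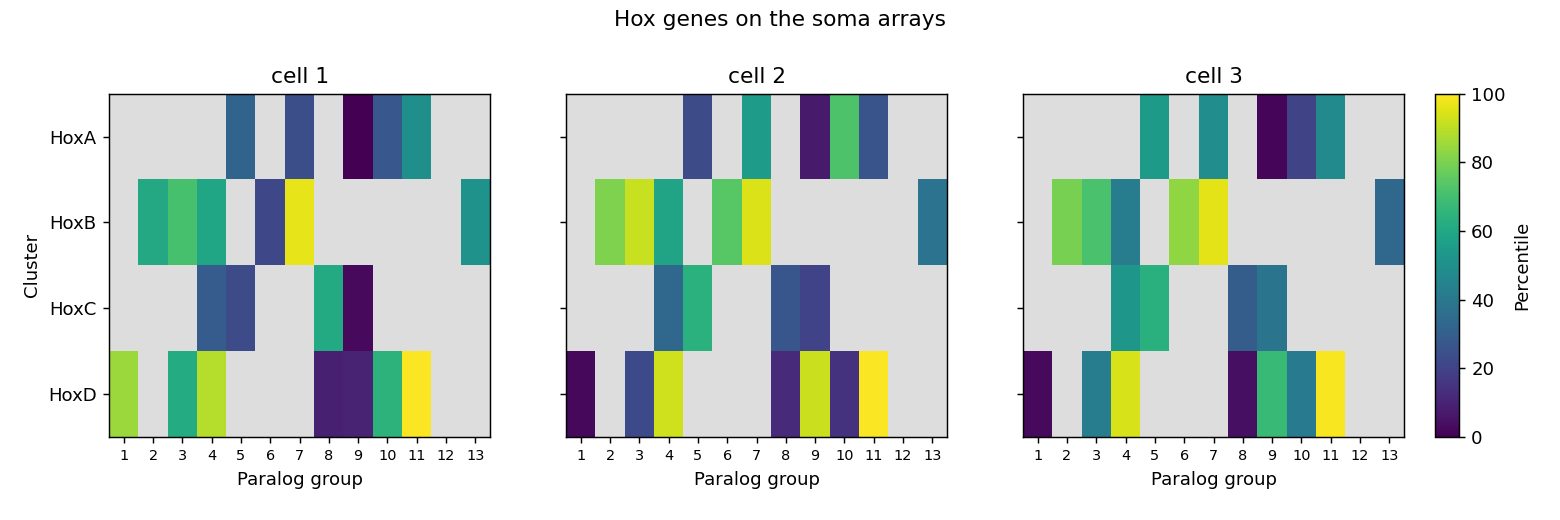
Percentile (colour, 0 to 100) of the 22 named Hox genes in each soma, with the 4 clusters as rows and the paralog group along the horizontal axis; grey positions were not analysed here. Hoxd11 and Hoxb7 are bright in all 3 cells, Hoxa9 and Hoxd8 dark in all 3, and Hoxd1 is bright in cell 1 alone.

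Neighbours within the HoxD cluster stood at opposite ends of the array. In their order along the chromosome, Hoxd11, Hoxd10, Hoxd9, Hoxd8, Hoxd4, Hoxd3 and Hoxd1 had mean percentiles of 99.4, 40.0, 56.5, 8.32, 91.9, 42.1 and 29.9. Hoxd11 and Hoxd8 kept their ends in all cells, while Hoxd9 lay at 9.86, 92.1 and 67.7 and Hoxd1 at 84.9, 2.16 and 2.69. To show what the promoters of neighbours and of pallial factors look like, the 250 bases upstream of the start are given for Hoxd11 (chr3:79992144-79992393), Hoxd8 (chr3:80014973-80015222), Lhx2 (chr3:42535494-42535743) and Pax6 (chr3:112590346-112590595), from RefSeq on GRCr8, all on the plus strand and 5′ to 3′. Capitals mark CpG dinucleotides, of which there are 20, 38, 33 and 5 in that order.
Hoxd11: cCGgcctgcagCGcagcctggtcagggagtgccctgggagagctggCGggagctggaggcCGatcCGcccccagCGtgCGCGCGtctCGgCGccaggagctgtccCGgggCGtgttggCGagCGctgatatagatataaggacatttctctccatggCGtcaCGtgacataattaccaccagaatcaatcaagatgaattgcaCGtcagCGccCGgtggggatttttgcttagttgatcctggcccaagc
Hoxd8: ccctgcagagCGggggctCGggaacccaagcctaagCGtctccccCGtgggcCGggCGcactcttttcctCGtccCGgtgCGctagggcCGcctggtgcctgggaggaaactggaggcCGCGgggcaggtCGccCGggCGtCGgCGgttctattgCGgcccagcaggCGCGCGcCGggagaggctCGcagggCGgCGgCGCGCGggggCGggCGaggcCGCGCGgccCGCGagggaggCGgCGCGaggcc
Lhx2: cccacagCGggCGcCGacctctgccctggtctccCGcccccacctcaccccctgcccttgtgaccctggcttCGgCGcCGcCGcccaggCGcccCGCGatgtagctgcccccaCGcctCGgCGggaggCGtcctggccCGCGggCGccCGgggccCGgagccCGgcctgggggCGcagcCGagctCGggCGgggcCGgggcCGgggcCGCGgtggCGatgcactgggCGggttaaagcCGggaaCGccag
Pax6: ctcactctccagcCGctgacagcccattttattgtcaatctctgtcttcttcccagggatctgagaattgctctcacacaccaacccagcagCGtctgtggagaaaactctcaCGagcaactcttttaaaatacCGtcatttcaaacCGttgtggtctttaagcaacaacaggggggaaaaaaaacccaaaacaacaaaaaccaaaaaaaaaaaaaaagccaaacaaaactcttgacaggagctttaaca
Of these 4, picked for display, Hoxd8 carries the most CpG and Pax6 the fewest. Elsewhere Pax2, with a mean percentile of 98.7, carries 25, and Sox6, with 12.5, carries 3. A link between CpG number and place on the array was not tested.

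Upstream sequence was found for 48 of the 74 members. The median number of CpG in the 250 bases was 16.5 for them, against 15 for 11701 promoters of genes on the array. It was 17 for 9 forebrain factors, against 19 for 19 factors of other regions. The letters TAATTA, a core of homeodomain sites that reads the same on both strands, were in 2 of 48 (4.17%), the promoters of Hoxd11 and Sox6, against 2.32% of all. The SOX letters AACAAT on either strand were in 4 (8.33%, against 5.36% of all), TATAAA on either strand in 2 (4.17%, against 8.07%), and the POU octamer ATGCAAAT on either strand in none (against 1.35%). Matched letters describe these windows and are not evidence of bound sites.

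SOX genes read low in their median. Their 14 genes had median percentiles of 40.1, 37.8 and 35.7 in cells 1, 2 and 3, or 37.9 ± 2.21, against 50.03 for all genes, but the brightest probe set per gene gave 45.7 and the mean over the family 45.8. Of the 14, 2, 3 and 1 passed background (14.3%, 21.4% and 7.14%, against 7.57%, 6.03% and 10.5% of all genes). In at least 1 cell 5 of them passed (35.7%, against 16.5% of all genes). Sox11, a factor of newly born neurons, lay at 10.6, 27.5 and 4.78, low in all cells, and Sox12, of the same group, at 90.9, 33.7 and 40.8. Sox2, kept in progenitors and glia, lay at 64.8, 56.3 and 74.4, Sox3 at 85.5, 66.3 and 93.4, and Sox1 at 94.9, 34.9 and 9.42, so that Sox2 stood in the upper part of every array and Sox1 at both ends. Sox21, another progenitor factor, was lower, at 2.76, 25.1 and 30.7. Together the 7 neural factors used in all regions had medians of 64.8, 34.9 and 37.9. Sox18 (2.12, 24.1 and 7.08), a factor of vessels, was the lowest SOX gene.

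Sox10, the glial member measured, read 6.14, 10.12 and 8.40 log2 in cells 1, 2 and 3 (percentiles 20.2, 94.8 and 77.0) and passed background in cell 2. Of 10 oligodendrocyte markers, Sox10 included, 0, 2 and 0 passed background in cells 1, 2 and 3. In cell 2 that was 20%, against 6.03% of all genes. The list had medians of 61.8, 63.6 and 55.1, and the other one to pass was the myelin gene Mag (44.3, 93.99 and 66.02). Mbp (51.6, 55.9 and 57.8) varied little, and Olig2 (91.8, 65.9 and 55.4) was highest in cell 1, where Sox10 was lowest. Their part in the value of Sox10 was not tested.

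Of the remaining families, DLX genes (74.9 ± 28.1, 3 genes) and PAX genes (74.8 ± 14.3, 6 genes) had the highest means of the 3 medians. The DLX median was the value of Dlx1 in every cell, between Dlx3 (mean percentile 97.0) and Dlx5 (11.7). PAX genes lay at 89.2, 74.6 and 60.5, with Pax2 at the top and Pax4, of the endocrine pancreas, at the bottom (17.6, 48.6 and 25.9). The 10 POU factors had medians of 51.6, 58.7 and 60.8, or 57.03 ± 4.83, whereas the 12 genes with the POU stem, which take in the coactivators Pou2af1 and Pou2af3, averaged 47.8 ± 8.03. NKX genes averaged 45.04 ± 8.16 (6 genes), from Nkx2-5 of the heart (71.1, 85.3 and 82.3) to Nkx2-2 of the ventral cord (10.3, 23.2 and 17.6). Sine oculis genes averaged 52.9 ± 18.8 (4 genes), with Six4 (mean percentile 25.6) below Six3. LHX genes averaged 42.5 ± 17.1 (5 genes). Factors of motor and sensory neurons and the ventral cord averaged 30.4 ± 6.82, at 38.2, 25.6 and 27.5 (6 genes), with Nkx6-2 at 91.6, 16.04 and 37.4. Among factors of other organs, Pou2f2 (60.5, 78.6 and 79.1) of lymphocytes had a higher mean than Pax9 (18.04, 80.1 and 34.7) of the skeleton and thymus, though not a higher place in cell 2, and than Pou1f1 (27.2, 16.8 and 13.6) of the pituitary. Pou2f1 (Oct1), which most cells use, lay at 68.7, 84.9 and 79.6.

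Single cells disagreed on many members, to about the degree seen over all genes. In 18 of 74 (24.3%) the highest and lowest percentile lay more than 50 points apart, against 20.8% of all genes, and the median gap was 27.5 points, against 29.3. The largest gaps were those of Sox13 (6.81, 96.1 and 20.3 in cells 1, 2 and 3), Sox1, Pou4f1, a factor of sensory neurons (3.15, 88.4 and 14.6), Hoxd1 and Hoxd9. Sox13 and Pou4f1 were high in cell 2 alone, whereas Sox1 and Hoxd1 were high in cell 1 alone. Cell 1 was the lowest for 34 members and the highest for 23, counts that were not made over all genes. In cell 1 alone, 4 of 10 microglial markers (medians 81.1, 46.9 and 24.1) also passed background. So did 2 of 9 astrocyte markers, Gja1 and S100b (medians 47.5, 37.0 and 23.9). In cell 1 these were 40% and 22.2%, against 7.57% of all genes. Of 10 vascular markers 1, Vwf, passed in every cell (10%, against 2.15% of all genes, with medians of 65.6, 42.7 and 41.7). The part of these lists in the members' values was not tested.

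The order of the members was otherwise kept between cells to about the degree seen over all genes. Over the 74 members, cells 1 and 2 had a Pearson's r of 0.509, cells 1 and 3 of 0.565 and cells 2 and 3 of 0.639, with a mean of 0.571 ± 0.0654 (SD, 3 pairs), against a mean of 0.529 over all genes and 0.474 over the silent genes. Genes are not independent replicates, and the same probes are compared on each array. Over the 14 forebrain factors r was 0.815, 0.367 and 0.0818 for these pairs, whereas over the 30 factors of other regions it was 0.537, 0.697 and 0.855. All genes (0.473, 0.438 and 0.676) and the silent genes (0.426, 0.386 and 0.611) also had their highest r between cells 2 and 3, and the forebrain factors had theirs between cells 1 and 2.

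Values were coarse. Of these 74 genes, 2, 9 and 17 shared their exact value with another member in cells 1, 2 and 3. In cell 3, Nkx2-1, Nkx2-2, Six4 and Six6 all read 5.83 log2, so the low percentile of Nkx2-1 there was a tie with 3 other members. Ties with genes outside the members were not counted.

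Probe sets of the same gene could disagree. Of the members, 62 had 1 probe set (83.8%, against 68.2% of all genes) and 12 had more, and in 6 of these the mean percentiles of the probe sets lay more than 30 points apart. Sox4, a factor of young neurons with 7 probe sets, spanned mean percentiles of 16.7 to 93.2, so that its gene value (33.7, 40.7 and 37.9) was that of the middle probe set in each cell. Sox17, of endoderm and vessels, spanned 6.09 to 74.9 over 3 probe sets and Pou6f1, a POU factor of the brain, 17.98 to 74.8 over 2. Pax8, among the 8 highest members, had a probe set at 99.8 and another at 45.1, and its dimmer probe set passed background in no cell. The 4 probe sets of Sox2 lay closer together, between 57.3 and 70.02.

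**Figure D4:**
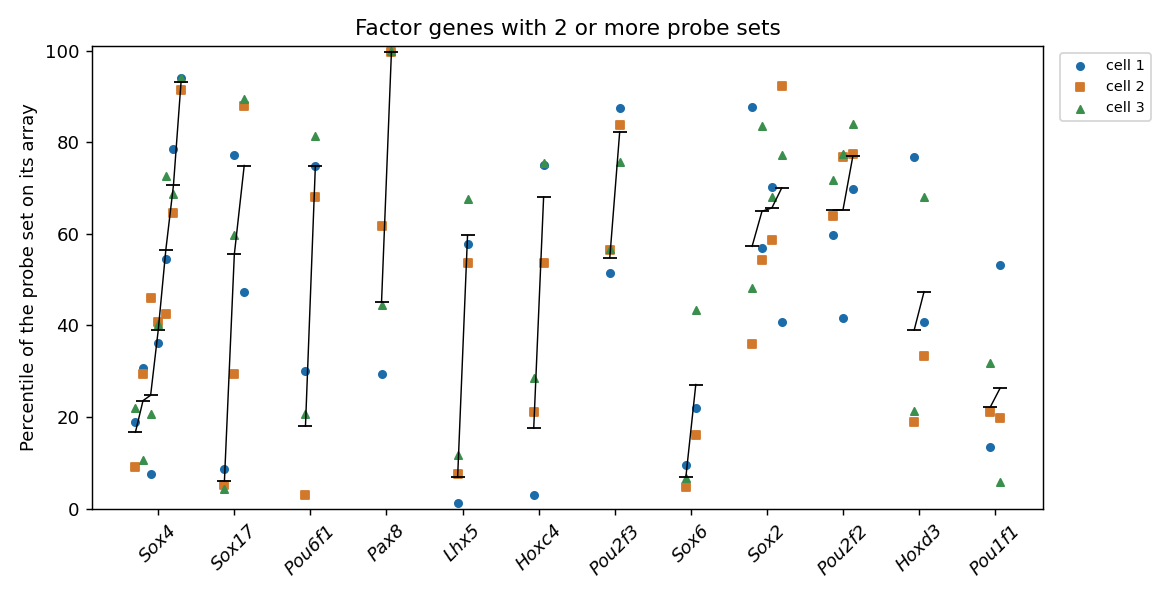
Percentile among named probe sets (vertical axis) of every probe set of the 12 member genes with 2 or more, with a colour and symbol per cell and a black line joining the means over the cells. The genes are ordered by the gap between their probe sets, from Sox4 with 7 probe sets that span most of the range to Pou1f1.

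Proteins that bind these factors stood in the middle as well. The list held TALE homeodomain partners of Hox proteins, LIM-binding adaptors of Lhx factors, EYA and DACH partners of sine oculis factors, and Groucho corepressors. Its 26 measured genes outside the rule had median percentiles of 50.9, 45.1 and 51.0, or 49.0 ± 3.41. Of them 1, 1 and 2 passed background (3.85%, 3.85% and 7.69%, against 7.57%, 6.03% and 10.5% of all genes). Eya1 (84.3, 99.3 and 98.0), a coactivator of sine oculis proteins, and Pbx4 (73.3, 80.0 and 91.4), a TALE cofactor of Hox proteins, led it. Ldb2 (3.47, 6.93 and 9.42), an adaptor of LIM domains, and the corepressor Tle2 (8.49, 27.5 and 11.6) closed it. TALE partners averaged 60.2 ± 5.54 (10 genes) and Groucho corepressors 34.8 ± 8.96 (5 genes).

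Regional factors from other gene families were compared in the same way. Another 18 forebrain factors had medians of 43.5, 48.9 and 61.5 in cells 1, 2 and 3, against 62.0, 62.4 and 42.6 for 13 factors of other regions, and the difference of -18.5, -13.6 and 18.9 points changed sign between cells. The zinc finger factor Zic2 (99.1, 96.3 and 98.3) was the highest of the forebrain list, and Gbx2 (94.4, 92.8 and 94.9), a hindbrain factor, the highest of the other. Emx2 (2.34, 7.63 and 44.3), which the hippocampus needs to form, and En2 (9.71, 7.27 and 4.44), of the midbrain-hindbrain boundary, were the lowest of their lists.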

How the data were processed

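Per the labels, the RNA of each soma passed through antisense RNA amplification, with a final incubation of 14 h, and 5 µg of the product went into biotin labelling for an Affymetrix rat array. The authors deposited 1 log2 value per probe set, and the submitters' processing notes name RMA 2.0. The published methods describe an upper-decile summary, median centring and range scaling of arrays without naming these somata, and medians of 7.23, 7.16 and 7.09 show that the deposited values were not centred. For the genome build: not given in the sources used here.

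Symbols came from the platform annotation, which can be old: 20832 of 31099 probe sets had 1 symbol, 436 had several (none matching the rule) and 9831 had none listed. RefSeq gene numbers (GRCr8) were found for 73 of the 74 members and changed no symbol. Genes took the median of their probe sets, and percentiles were ranks with ties averaged. Correlations used quantile-normalised values. With 3 arrays of 1 group there was no second group to test against, differences between lists within a cell were not tested, and mean ± SD describes the spread over cells, which may be technical since no animal or culture is named. The number of arrays limits the precision. The ranking and normalisation were tested on simulated data. Python 3.11.15 with numpy 2.4.6, pandas 2.3.3 and scipy 1.17.1 was used.

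Members and lists were chosen with earlier results of these data known. Of the listed genes, 14 of 20 forebrain, 30 of 55 other-region and 15 of 24 outside factors were measured; Dlx2, Lhx6, Sox5 and Sox9 were not analysed here. Named were the 8 highest and 4 lowest members, the ends of each list and family, the 5 largest gaps between cells, the 3 largest between probe sets, 16 textbook factors, and 2 partners at each end; other factor genes and markers were named after their values were seen.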

Additional observations from a re-analysis of the deposited data

How the results depend on the processing

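No paired analysis was possible because all samples form a single group. Of 130 values recomputed under the alternatives, 112 moved by less than the spread between cells (counts by less than 1.5 times) and 18 by more. The forebrain minus other-region difference stayed above 0 in 11 alternatives, between 0.04996 without ambiguous probe sets and 17.7 with a strict forebrain list, always within 1 SD of its value. The forebrain minus outside difference stayed below 0 in 8 and moved to -17.0 without ambiguous probe sets. The 3 cells differed among themselves by more than most of these values. All alternatives reused the same arrays, so a kept sign is not independent evidence. In the main setting both differences had the opposite sign in cell 1 (-2.26 and 5.57 points).

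The forebrain median moved to 62.7 with the strict list and 45.1 without ambiguous probe sets. The POU median moved to 57.03 without the coactivators, an alternative chosen after seeing the data. The Hox median moved to 44.9 with the brightest probe set. The SOX median moved to 45.7 with the brightest and 41.2 with the mean of the probe sets, to 45.8 with a mean over the family and to 42.9 with probe sets in place of genes, and the partner median to 44.6 with probe sets. Among genes whose mean over cells was above the mean background, 7 members were left, and the share of all genes left was not worked out. Percentiles were ranked anew among the genes kept, so they are not on the scale of the main values. There the Hox median, of Hoxd11, Hoxb7 and Hoxd4, was 39.1. The SOX value, of Sox15 alone, was 48.1 ± 39.3. The partner median was 53.1, r was 0.646 and 0 members were in the top 5%. A background at the 90th percentile of the silent genes gave a mean of 14.3 members above it per cell. The share of all genes above that lower limit was not worked out. The top 10% held a mean of 11.7 members per cell, where by definition it holds 10% of all genes. Leaving out each replicate in turn gave r from 0.510 to 0.637 over the remaining pair, and a forebrain minus other-region difference of 0.512 to 11.3, and a forebrain minus outside difference of -12.4 to -3.35. The cause of these moves was not tested. No forebrain, neural or POU factor passed that filter, so no value could be given for them or for the differences between regions. Means over a list could not be formed for counts and r.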
